A study of Mus musculus with 6 samples.

Results

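The replication-dependent histone genes were taken as the 55 of 20138 gene symbols in the authors' deposited table that start with Hist1h, Hist2h, Hist3h or Hist4h. By histone type they comprised 6 genes for the linker histone H1, 13 for H2A, 15 for H2B, 10 for H3 and 11 for H4, of which 1 H2B entry, Hist3h2bb-ps, is annotated as a processed pseudogene. By cluster, 43 lay in Hist1 on chromosome 13, 8 in Hist2 on chromosome 3, 3 in Hist3 on chromosome 11 and 1, Hist4h4, on chromosome 6. The table compares kidneys of 3 Pkd2-KO mice with kidneys of 3 Pkd2-miR-214-KO mice at postnatal day 35. Both genotypes carry floxed Pkd2 alleles and Cre under the Pkhd1 promoter, which is active mainly in kidney tubule cells, so Pkd2 is deleted there in both groups and cells in which Cre is not active keep it. Animals of the second genotype are in addition null for miR-214, so the comparison asks what differs in kidneys lacking Pkd2 when this microRNA is missing. No wild-type kidney was analysed here. Sex and litter are not given, values for single animals were not analysed here, and sequencing depth is unknown.

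Replication-dependent histones are the bulk histones of chromatin, and their genes are transcribed in S phase to package newly copied DNA. H2A, H2B, H3 and H4 form the core of the nucleosome, and H1 binds the DNA between nucleosomes. The mRNAs of these genes are the animal mRNAs that usually carry no poly(A) tail: they are cut just after a conserved stem-loop that is bound by the stem-loop binding protein Slbp. Some of the genes also make a longer, polyadenylated mRNA, mainly in cells that have left the cycle. An RNA library made by poly(A) selection would thus show only the polyadenylated forms. The labels name a stranded total RNA kit for these libraries, but the series design mentions polyA RNA, and which selection was used could not be settled.

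The 3' end stem-loop was read from the GENCODE M21 transcripts, on the assembly of mm10, because it is the feature that decides how these mRNAs end. At least 60 bases after the stop codon are annotated for 40 of the 55 genes, and 38 of these 40 hold a stem-loop within 150 bases, in each case with no mismatch to the histone stem-loop consensus. Among 20471 other protein-coding genes with as much annotated sequence, 0.0342% hold an exact match and 3.59% a match with up to 2 mismatches. The forms are shown 5′ to 3′ with the paired stem in capitals and the loop in lower case, each under a gene that carries it.
Hist1h1c: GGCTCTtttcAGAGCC
Hist1h2bb: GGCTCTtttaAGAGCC
Hist2h2ac: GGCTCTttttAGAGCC
Hist1h3g: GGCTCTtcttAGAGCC
Hist1h4h: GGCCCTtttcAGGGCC
Hist1h4i: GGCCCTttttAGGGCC
Hist1h4a: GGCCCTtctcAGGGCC
Hist1h4b: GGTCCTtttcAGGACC
The form shown for Hist1h1c was shared by 20 genes of the types H1, H2A, H2B and H3, and that of Hist1h2bb by 6. H4 genes carried other stems: the form of Hist1h4h was found in 5 of them, that of Hist1h4i in 2, that of Hist1h4b in 2 and that of Hist1h4a in 1. The forms of Hist2h2ac and Hist1h3g were found in those genes alone. The 2 genes with enough annotated sequence and no stem-loop were Hist1h2bc, whose annotated transcript is spliced, and Hist2h2be.

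Most of these genes were at the bottom of the measured range. By the authors' deposited table, 44 of the 55 had an average log2 CPM below -2, against 19.6% of all genes, and 4 (7.27%) reached an average log2 CPM of 0, against 72.1% of all genes. The lowest average log2 CPM of any gene in the authors' deposited table was -4.19, and 33 of the 55 genes lay within 1 of it. This mean is taken over the 6 libraries, and in whole kidney it cannot separate fewer cells of a type from less RNA per cell. Lengths differ between genes, so levels are compared below as average log2 CPM per kilobase of annotated exon. On that scale the 55 genes had a median of -2.82 against 1.78 for the 19024 genes that matched 1 GENCODE gene.

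Hist1h2bc, an H2B gene (chromosome 13, 23684199 to 23692908), stood highest, with an average log2 CPM of 5.51 by the authors' deposited table and 5.30 per kilobase, at the 93.2 percentile of all matched genes. Hist1h1c, which encodes the linker histone H1.2 (chromosome 13, 23738808 to 23740367), had 3.91 in the authors' deposited table and 3.27 per kilobase. Hist3h2a, an H2A gene (chromosome 11, 58954685 to 58956830), had 3.78 in the authors' deposited table and 2.68 per kilobase. Next came Hist2h2be, an H2B gene (chromosome 3, 96221119 to 96223738), with 3.91 in the authors' deposited table and 2.52 per kilobase. Per kilobase these 4 genes all lay above the median of matched genes, with Hist1h1c at the 71.7 and Hist3h2a at the 62.6 percentile. Hist3h2ba, an H2B gene of the Hist3 cluster (chromosome 11, 58948920 to 58949533), followed at 0.36 per kilobase, with an average log2 CPM of -0.34 by the authors' deposited table, and Hist1h4h (chromosome 13, 23531050 to 23531519) was the highest H4 gene at 0.044. No H3 gene came near these levels: the highest of the 10, Hist1h3i, had -2.77 per kilobase and the lowest, Hist2h3c1, -4.53. Among the other types the lowest values per kilobase were -4.37 for Hist1h1d, -4.74 for Hist1h2ac, -3.78 for Hist1h2bh and -5.45 for Hist4h4. At the bottom of the table the value per kilobase is set mainly by the annotated length, so the order of such genes carries no information.

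**Figure D1:**
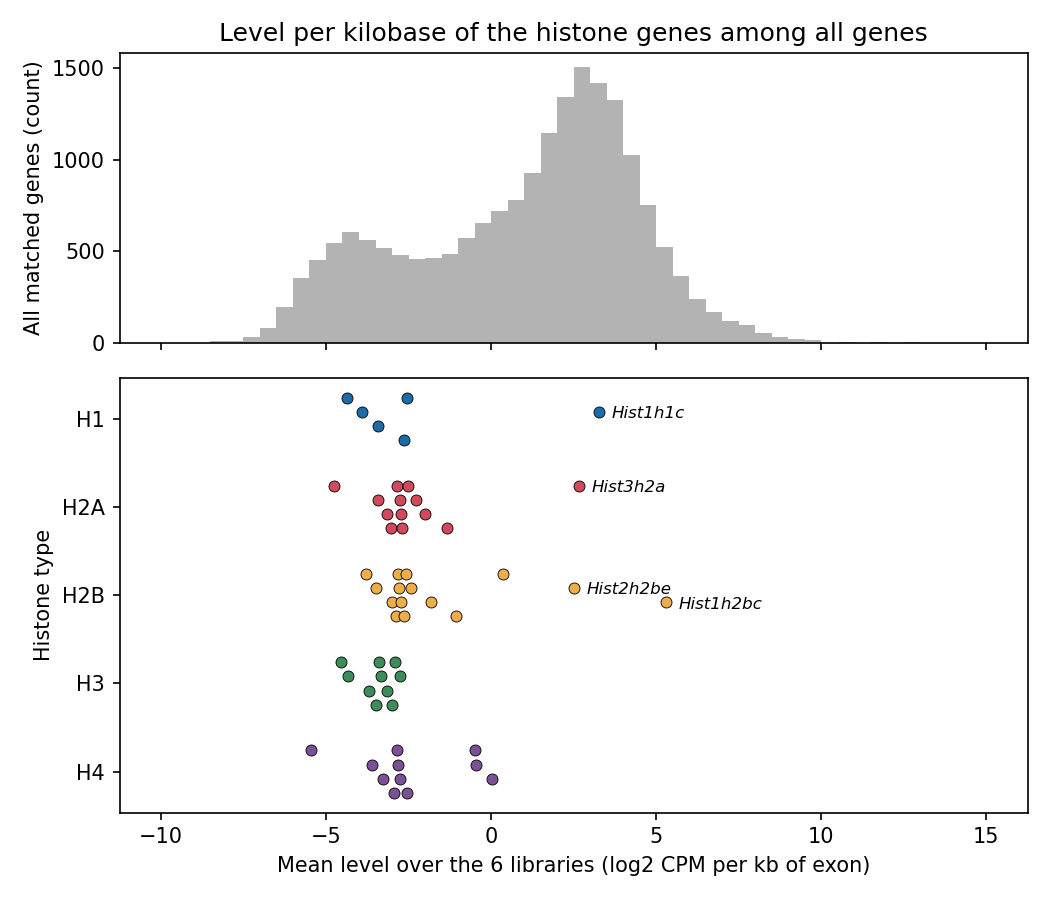
Mean level over the 6 libraries in log2 CPM per kilobase of annotated exon (x axis), as a histogram of the 19024 matched genes (upper panel, y axis counts genes) and as 1 point per histone gene by type (lower panel). The 4 labelled genes lie between 2.52 and 5.30, and every H3 gene lies below -2.

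The annotated 3' ends were set beside these levels. All 4 genes with an average log2 CPM of at least 0 were among the 15 genes with 500 or more annotated bases after the stop codon, and the 25 genes with at least 60 but fewer bases held none. The median average log2 CPM was -2.58 for the 15 genes and -3.87 for the 25 by the authors' deposited table, and per kilobase the medians were -2.897 and -2.996. A poly(A) signal AATAAA in the last 50 annotated bases was found for Hist1h1c, Hist3h2a and Hist2h2be but not for Hist1h2bc, and for 12 of the 40 genes in all, against 68.3% of the other protein-coding genes. The other 9 genes with the signal included Hist3h2ba, and the median average log2 CPM was -3.66 over all 12 and -3.61 over the 28 without it by the authors' deposited table. Most genes in each of these groups were near the bottom of the range, so the medians say little about single genes. Hist1h1c and Hist3h2a carry both the stem-loop and a signal, with 840 and 1643 annotated bases beyond the stem-loop. The 38 genes with a stem-loop ran from -5.45 to 3.27 per kilobase with a median of -2.97, while Hist1h2bc and Hist2h2be, without it in their annotated transcripts, had 5.30 and 2.52.

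**Figure D2:**
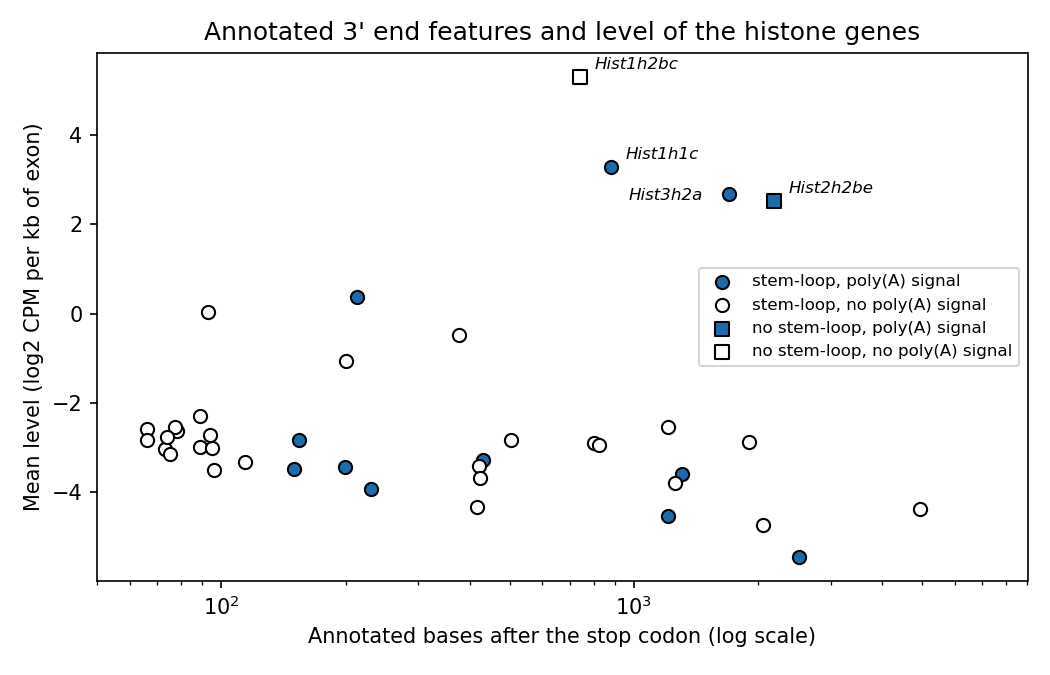
Mean level in log2 CPM per kilobase of exon (y axis) against the annotated bases after the stop codon (x axis, log scale) for the 40 genes with at least 60 such bases. Circles carry the stem-loop, squares do not, and filled symbols have AATAAA in the last 50 bases; the 4 labelled genes lie above all others, and filled symbols occur at both high and low levels.

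Many H2A and H2B genes lie head to head and share the sequence between their starts, so a pair offers a comparison of levels beside a common promoter. The 55 genes formed 10 divergent pairs with starts within 1000 bases, of which 1, Hist1h2bh with Hist1h3f, joins an H2B and an H3 gene. Of these, 3 pairs hold a gene of the high group. For each, a window over most or all of the stretch between the starts is shown beside the unequal levels. Each window also runs into the facing gene as annotated in GENCODE M21, furthest for that of Hist3h2a, which begins inside Hist3h2bb-ps. The sequences are RefSeq promoter windows on GRCm38.p6, 250 bases before the start, written 5′ to 3′ in the direction of the named gene, and capitals mark the octamer ATTTGCAT, CCAAT and TATAAA on either strand.
Hist1h2ac (chr13:23683960-23684209, minus strand, facing Hist1h2bc): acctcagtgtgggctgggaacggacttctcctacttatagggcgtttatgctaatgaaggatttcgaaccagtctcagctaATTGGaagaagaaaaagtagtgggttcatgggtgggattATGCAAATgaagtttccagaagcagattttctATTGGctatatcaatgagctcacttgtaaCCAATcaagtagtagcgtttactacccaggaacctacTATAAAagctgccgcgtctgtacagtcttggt
Hist2h2ac (chr3:96220881-96221130, minus strand, facing Hist2h2be): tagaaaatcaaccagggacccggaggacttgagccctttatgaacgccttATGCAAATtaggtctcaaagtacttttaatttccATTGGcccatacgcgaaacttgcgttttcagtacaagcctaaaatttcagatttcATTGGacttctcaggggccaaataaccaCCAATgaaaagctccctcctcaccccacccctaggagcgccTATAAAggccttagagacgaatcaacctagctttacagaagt
Hist3h2a (chr11:58954435-58954684, plus strand, facing Hist3h2bb-ps): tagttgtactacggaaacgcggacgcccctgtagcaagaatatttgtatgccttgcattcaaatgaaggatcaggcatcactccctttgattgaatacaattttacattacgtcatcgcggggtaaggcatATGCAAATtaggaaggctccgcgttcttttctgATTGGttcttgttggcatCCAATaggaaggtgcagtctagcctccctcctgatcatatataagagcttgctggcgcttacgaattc
All 3 hold 1 octamer, with 3 CCAAT copies each in the windows of Hist1h2ac and Hist2h2ac and 2 in that of Hist3h2a. In the authors' deposited table Hist1h2bc and its neighbour Hist1h2ac, whose starts are 251 bases apart, had average log2 CPM values of 5.51 and -3.43, a difference of 8.94, or 10.04 per kilobase. Hist2h2be and Hist2h2ac, 239 bases apart, had 3.91 and -3.66 in the authors' deposited table and differed by 7.57, or by 5.24 per kilobase. Hist3h2a and the pseudogene Hist3h2bb-ps, 173 bases apart, had 3.78 and -2.92 in the authors' deposited table and differed by 6.70, or by 4.49 per kilobase. In each of these pairs 1 gene was well measured and its partner was low in the range, where values per kilobase follow the annotated length, so the order of the levels is shown and not the exact size of the gap. Across the promoter windows found for 50 of the 55 genes, the octamer occurred in 6 of 13 H2A genes, in 6 of 12 H2B genes and in none of the 6 H1, 9 H3 and 10 H4 genes, against 1.97% of 27025 genes. CCAAT occurred in 86.0% of the 50 genes against 41.1% of all genes, with 3 of 10 H4 genes, and TATAAA in 56.0% against 15.7%. Such matches describe the letters of the window and do not show a bound factor.

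**Figure D3:**
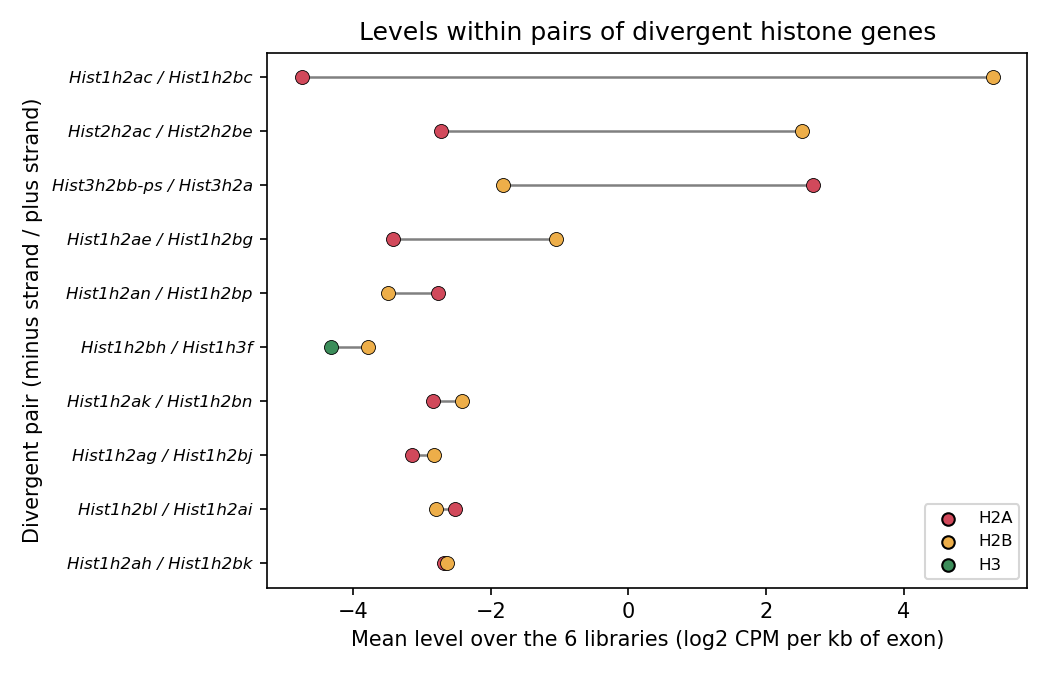
Mean level in log2 CPM per kilobase of exon (x axis) of the genes of each divergent pair (y axis, minus strand gene named first), coloured by histone type and joined by a line. The lines of the top 3 pairs span 10.04, 5.24 and 4.49, the genes Hist1h2ae and Hist1h2bg differ by 2.37, and the 6 other pairs differ by 0.0452 to 0.718.

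Between the genotypes no replication-dependent histone gene passed the threshold. Of the 55 genes, 0 had an adjusted p under 0.05 in the authors' deposited table (edgeR likelihood ratio test, Benjamini-Hochberg over all genes), where 0.124% of all genes did, and 0 of the 55 had an adjusted p under 0.1, against 0.139%. Without adjustment 2 of the 55 (3.64%) had a p under 0.05 in the authors' deposited table, against 4.82% of all genes, and both were H2B genes with positive folds. By direction, 2 of the 55 were higher in Pkd2-miR-214-KO, against 3.1% of all genes, and 0 were lower, against 1.71%. Folds are log2 of Pkd2-miR-214-KO over Pkd2-KO, a direction read from the deleted gene Mir214 (-7.62 ± 1.08 in the authors' deposited table), and errors are approximate standard errors computed from each fold and its likelihood ratio. The 55 log2 folds in the authors' deposited table split into 26 positive, 25 negative and 4 exactly at 0, with a median of 0, as over all genes. The share of genes called or nominally different was thus no higher among the histone genes than in the table as a whole.

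The 4 well-measured genes did not share a direction. Hist2h2be had a log2 fold change of 0.67 ± 0.25 (p = 0.00797, adjusted p = 0.545) in the authors' deposited table, with an approximate 95% interval of 0.17 to 1.16, and was the 1 gene of the 4 whose interval left out 0. Hist1h1c had 0.45 ± 0.40 in the authors' deposited table, with an interval of -0.32 to 1.23. Hist1h2bc, the most abundant, had -0.11 ± 0.33 in the authors' deposited table, with an interval of -0.77 to 0.54, and Hist3h2a had -0.28 ± 0.31, with an interval of -0.89 to 0.32. Hist3h2a overlaps Trim17 on the same strand in GENCODE M21, and Trim17 had a log2 fold change of -1.53 ± 0.72 at an average log2 CPM of -1.79 by the authors' deposited table. Whether reads were assigned to either gene is not given in the sources used here.

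Linker histones were measured through 6 genes. Apart from Hist1h1c, the S phase H1 genes had negative log2 folds in the authors' deposited table, with -1.73 for Hist1h1a, -1.91 for Hist1h1b, -1.59 ± 1.08 for Hist1h1d and -0.53 ± 0.92 for Hist1h1e. None had an unadjusted p under 0.05, and the average log2 CPM of these 4 genes in the authors' deposited table lay between -3.87 and -1.47. Hist1h1t, the testis H1, had a log2 fold change of 0.00059 at an average log2 CPM of -4.05 by the authors' deposited table, next to the haploid germ cell genes Prm2 and Tnp2 at -4.12 each. The testis histones Hist1h2aa and Hist1h2ba have no line in the table used here. Hist1h1e overlaps Hist1h2be on the same strand, so the reads of these genes may not be separable.

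The H2A and H2B genes, which form the dimers on the outside of the nucleosome core, held the extreme folds. Among H2A genes 4 log2 folds were positive, 7 negative and 2 at 0 in the authors' deposited table, and among H2B genes 6 were positive and 9 negative. Hist1h2bj had the highest log2 fold in the authors' deposited table, 3.37 ± 1.50 (p = 0.0243, adjusted p = 0.831), at an average log2 CPM of -3.93. Hist1h2ai (2.99 ± 1.55) and Hist1h2ah (2.50 ± 1.55) had the next highest, and Hist1h2bk (-2.98 ± 1.58), Hist2h2ac (-2.98 ± 1.55), Hist2h2bb (-2.49 ± 1.56) and Hist1h2af (-2.33 ± 1.46) the lowest, all without an unadjusted p under 0.05 in the authors' deposited table. Every gene named here with a log2 fold beyond 2 in either direction had an average log2 CPM below -2. Hist1h2be had 1.06 ± 0.59 at a higher average log2 CPM of -0.71 by the authors' deposited table. In the Hist3 cluster, Hist3h2ba had 0.034 ± 0.66 and Hist3h2bb-ps 0.18 ± 0.89 in the authors' deposited table.

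H3 and H4 form the inner tetramer of the nucleosome, and none of their log2 folds was beyond 2 in either direction. The 10 H3 log2 folds in the authors' deposited table ran from -1.72 to 0.51 with a median of 0.018, at average log2 CPM values from -4.18 to -2.58. The 11 H4 log2 folds ran from -1.50 to 1.74 with a median of 0.022 in the authors' deposited table. Hist1h4h, the H4 gene with the highest level per kilobase, had the lowest of them (-1.50 ± 0.87, p = 0.0840, adjusted p = 1), and Hist1h4i, the H4 gene with the highest average log2 CPM, had -0.071 ± 0.70 in the authors' deposited table. Hist4h4, the single gene of its cluster, had 1.73 ± 1.49 at an average log2 CPM of -3.93 by the authors' deposited table.

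**Figure D4:**
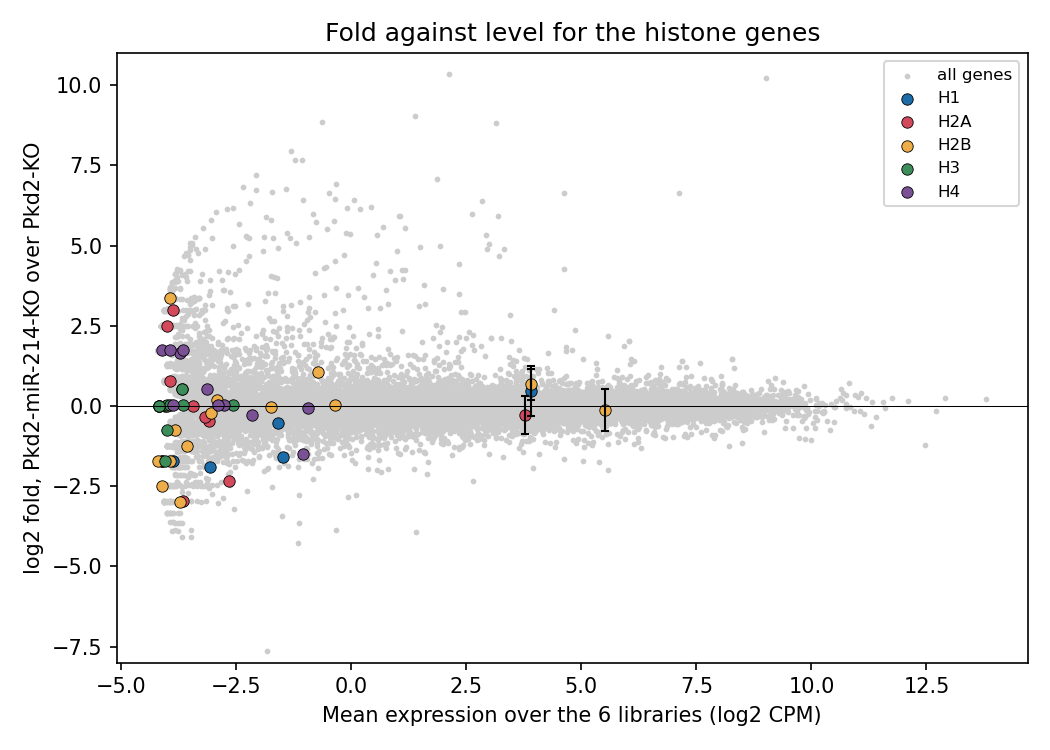
Log2 fold of Pkd2-miR-214-KO over Pkd2-KO (y axis) against average log2 CPM (x axis) for all genes in grey and the histone genes coloured by type; vertical bars are the approximate 95% intervals of the 4 well-measured genes. Histone folds beyond 2 in either direction occur only at an average log2 CPM below -2, and the 4 genes with bars lie between -0.28 and 0.67.

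Folds at the bottom of the table came in steps. Of the 55 genes, 9 (3 positive, 6 negative) had a log2 fold between 1.7 and 1.8 in size in the authors' deposited table, all at an average log2 CPM of -3.66 or lower, and 633 of the 676 genes in the whole table with a fold of that size had an average log2 CPM below -3. Another 4 of the 55, Hist1h2ag, Hist1h2ak, Hist1h3b and Hist2h3b, had a fold and a likelihood ratio of exactly 0 in the authors' deposited table, as did 414 genes in all. For such genes a difference between the genotypes was not detectable in these data, which does not show that there was none.

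Near-identical copies and overlapping annotated genes add to the uncertainty of single genes. Of the 50-base words in the GENCODE transcripts of each gene, a median of 43.8% also occur in transcripts of another gene, and 22 of the 55 genes share at least 50% of theirs. The share was highest for H3 (median 62.0%) and H2A (58.0%) and lowest for H1 (1.13%). Hist2h3c1 shares all of its words with other genes, and Hist2h3c1 and Hist2h3c2 both had an average log2 CPM of -3.66 and a log2 fold change of 0.51 in the authors' deposited table. Of the well-measured genes, Hist2h2be shares 0% of its words, Hist1h1c 8.54%, Hist1h2bc 30.1% and Hist3h2a 31.5%. The gene sharing most words with Hist3h2a was Trim17, and with Hist2h3c1 it was Gm20634. Each overlaps its histone gene on the same strand, so such words can be the same bases annotated for both genes and not separate copies. How reads that match several genes were counted is not given in the sources used here, and 16 of the 55 genes also overlap an annotated gene on the opposite strand.

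Replication-independent histones are variants whose synthesis is not tied to S phase in the way of the bulk histones, mostly from polyadenylated mRNAs, and most of those listed were well measured. Of 18 such genes listed, 14 were in the table and 11 reached an average log2 CPM of 0, with levels per kilobase of 7.44 for H3f3b, which encodes H3.3, 6.92 for the linker histone gene H1f0 and 6.36 for H2afz. None of the 14 had an adjusted p or an unadjusted p under 0.05 in the authors' deposited table, 9 log2 folds were negative and 4 positive, and the median was -0.18. The lowest p-values in the authors' deposited table belonged to Cenpa, the centromeric H3 (-0.73 ± 0.40), H2afx, the variant phosphorylated at DNA breaks (-0.63 ± 0.38), the H1 variant gene H1fx (-0.59 ± 0.50) and the oocyte gene H1foo (-1.72 ± 1.50).

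Genes for the making and ending of histone mRNA showed no difference that passed the test. All 18 listed genes were measured, 9 with positive and 9 with negative log2 folds, and 0 had an adjusted or an unadjusted p under 0.05 in the authors' deposited table. Slbp had a log2 fold change of -0.010 at an average log2 CPM of 5.11 by the authors' deposited table. The lowest p-values in the authors' deposited table were those of Srrt (-0.25 ± 0.20), which acts at the mRNA cap, the decay helicase gene Upf1 (-0.19 ± 0.19), the cap-binding gene Ncbp2 (-0.18 ± 0.21) and Lsm11 (0.21 ± 0.26), part of the histone-specific U7 particle. Log2 folds of all 18 ran from -0.25 to 0.21 in the authors' deposited table.

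Histone chaperones, which carry histones to DNA, had 9 positive and 10 negative log2 folds and 0 of 19 genes with an adjusted p under 0.05 in the authors' deposited table. The histone importer gene Ipo4 was the 1 gene with an unadjusted p under 0.05 (-0.40 ± 0.20, p = 0.0456, adjusted p = 1) in the authors' deposited table. That is 5.26% of the 19 genes, near the 4.82% of all genes. Cabin1 (-0.21 ± 0.19), Asf1b (-0.49 ± 0.53) and Rbbp7 (0.21 ± 0.23) followed in the authors' deposited table.

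Polyadenylated S phase mRNAs were detected at levels far from the bottom of the table. All 30 listed genes had an average log2 CPM above 0, and 27 log2 folds were negative and 3 positive with a median of -0.19 in the authors' deposited table, against a median of 0 over all genes. None of the 30 had an adjusted or an unadjusted p under 0.05 in the authors' deposited table. Tk1, a thymidine kinase, had -0.91 ± 0.47, the helicase subunit gene Mcm5 -0.69 ± 0.41, and the cyclin genes Ccne1 -0.84 ± 0.54 and Ccna2 -0.89 ± 0.62 in the authors' deposited table. The S phase mRNAs were therefore well measured while the histone genes of the same phase were mostly not.

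**Figure D5:**
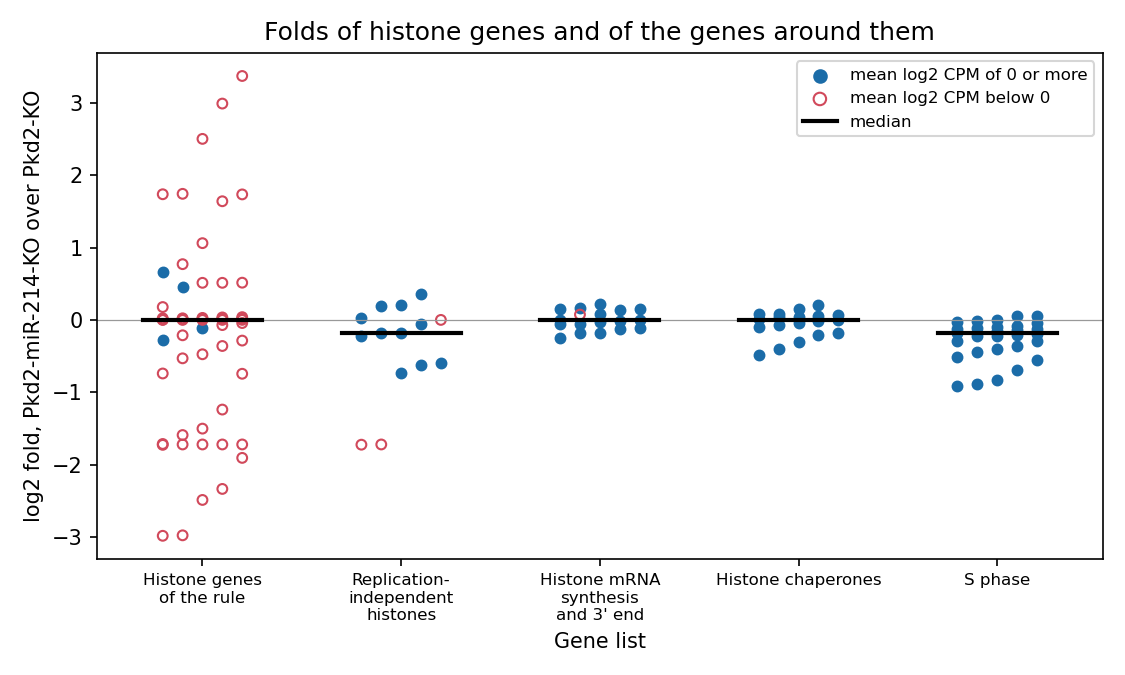
Log2 fold of Pkd2-miR-214-KO over Pkd2-KO (y axis) of the 55 histone genes and of the measured genes of 4 lists (x axis), 1 point per gene, with the median as a black bar. Filled points have an average log2 CPM of at least 0 and open points a lower one; the wide spread of the histone genes is made of open points, and 27 of 30 S phase genes lie below 0.

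RNAs without a poly(A) tail were examined in the same table. Of 13 named RNAs listed, 7 were in the table, and 35 Snora and 63 Snord small nucleolar RNAs and 9 small Cajal body RNAs were also measured. Lines of the small nucleolar and Cajal body RNAs can also take reads of their host transcripts. Of the 114 genes measured, 7 (6.14%) reached an average log2 CPM of 0 by the authors' deposited table, against 7.27% of the histone genes and 72.1% of all genes. The median of the 114 was -2.35. These values are not per kilobase, so a likeness between the 2 groups does not take account of length. Rpph1, the RNA of ribonuclease P, had an average log2 CPM of 0.11 and a log2 fold change of -2.78 ± 1.21 (p = 0.0213, adjusted p = 0.784) in the authors' deposited table. Of the 114, 2 (1.75%) had an unadjusted p under 0.05 in the authors' deposited table, against 4.82% of all genes. These were Rpph1 and 1 small Cajal body RNA, both lower in Pkd2-miR-214-KO. Among the 7 named RNAs the next smallest p-values were those of Rmrp (-1.49 ± 1.24), Rnu12 (1.72 ± 1.50) and Terc (-1.11 ± 1.01). Their average log2 CPM values lay between -3.58 and -0.93 in the authors' deposited table. Per kilobase the levels were 2.19 for Rnu73b, 1.76 for Rpph1, -0.43 for Vaultrc5, -0.71 for Rnu11, -0.74 for Rnu12 and -2.34 for Terc. The median per kilobase was -2.82 for the histone genes and 1.78 for all matched genes. Values per kilobase are not given here for the other RNAs of the list. What the low levels of the 114 genes and of the histone genes owe to the RNA selection was not tested.

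The labelled tissue was checked with marker lists, which also covered other cells a whole kidney can hold. The kidney genes Umod, Slc34a1, Lrp2, Slc12a1, Slc12a3 and Aqp2 had average log2 CPM values of 8.39 to 11.40 in the authors' deposited table. B and plasma cell markers had a median log2 fold change of 2.66 with 10 of 10 positive, erythroid markers 1.47 with 9 of 9 and neutrophil markers 1.74 with 8 of 8 in the authors' deposited table. None of these genes had an adjusted p under 0.05 in the authors' deposited table, against 0.124% of all genes. An unadjusted p under 0.05 was found for 8, 4 and 7 of them in that order, against 4.82% of all genes. Over all genes 10020 log2 folds were positive and 9704 negative in the authors' deposited table. The marker lists were chosen with earlier results of these data known. The erythroid lines hold 3 pairs of globin entries with the same level and fold, Hba-a1 with Hba-a2, Hbb-b1 with Hbb-bs and Hbb-b2 with Hbb-bt, so they are not 9 separate measurements, and the last pair counts as 2 of the 4 erythroid lines with an unadjusted p under 0.05. The average log2 CPM of all these markers ran from -3.20 to 8.28 in the authors' deposited table. The part of such cells in the histone values was not tested. Pkd2 had a log2 fold change of -0.11 ± 0.23 in the authors' deposited table.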

How the data were processed

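Kidney RNA of 6 mice, 3 per genotype, was compared in 1 table of 20138 genes. TopHat2 2.0.12, edgeR and mm10 are listed in the submitters' processing notes, without settings. Per the file headers the authors deposited a log2 fold, a mean log2 CPM, a likelihood ratio, which is a score on 1 degree of freedom, a p-value and its adjusted form. The chi-square tail of the ratio gave the deposited p-value with a largest difference of 6.25e-15, and a Benjamini-Hochberg adjustment over all genes gave the deposited adjusted p-value with a largest difference of 5.1e-14. For filters, normalization factors and strand use the labels give no setting. The p-values test the genotype difference against a spread fitted to these 6 libraries, and how that spread was estimated is not given. Whether the animals came from separate litters is not given either, so a litter difference between the groups could not be told apart from genotype.

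No count or value per library was used, so the authors' likelihood ratio test was kept and no test was added. An approximate standard error was formed as the absolute log2 fold over the root of its likelihood ratio, and intervals are 1.96 of it to either side; it is poor at low counts. Direction was read from Mir214, which then cannot check the labels. Positions, lengths, stem-loops (16 bases) and words came from GENCODE M21, and promoters (250 bases before to 50 after the start) from RefSeq. The level per kilobase is mean log2 CPM minus log2 of the union of annotated exons in kilobases; the annotation may differ from the authors'. Searches and the adjustment were tested on simulated data. Members and lists were chosen with earlier results of these data known. Named genes were the highest by level, the smallest p-values per direction, every H1, Hist3 and Hist4 gene, the extremes per type and up to 4 genes of smallest p per list. For RNAs without a poly(A) tail these 4 were taken among the 7 named RNAs only. Scripts ran under Python 3.11.15 with scipy 1.17.1, numpy 2.4.6 and pandas 2.3.3, and plots were drawn with matplotlib 3.10.9.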

Additional observations from a re-analysis of the deposited data

How the results depend on the processing

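The count of histone genes called stayed at 0 with an adjusted p under 0.1 and with adjustment over genes with a mean log2 CPM of at least 0, and was 2 at an unadjusted p under 0.05. Restricted to a mean log2 CPM of at least 0, which leaves 4 genes, the median log2 fold moved from 0 to 0.17 over all genes of the family, from -1.06 to 0.45 for H1, from -0.11 to 0.28 for H2B, from 0 to 0.17 for the Hist1 cluster, from 0.011 to 0.67 for Hist2 and from 0.034 to -0.28 for Hist3. The H1, Hist2 and Hist3 values then rest on 1 gene each, and H3, H4 and Hist4 have none left. The other 15 of 22 alternatives moved a median by less than 0.1 on the log2 scale or a count by no more than 1.5 times. With 100-base words 16 genes in place of 22 shared at least 50% of their words. No paired analysis was possible because no value per library was used and the labels pair no animals. Leaving out each library in turn was not run for the same reason.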

Other observations

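An exact histone stem-loop was also found within 150 bases of the stop codon in 7 protein-coding genes outside the family. One of them, H2afx, is the 1 of 13 searched replication-independent histone genes with a stem-loop, and it is known to make both a stem-loop and a polyadenylated mRNA. Its level of 3.22 per kilobase lay close to the 3.27 of Hist1h1c, which carries the stem-loop and a poly(A) signal. Hist1h1c was the highest of the 12 family genes with the signal, which ran down to -5.45 per kilobase with a median of -3.36. All of these 12 except Hist2h2be also hold the stem-loop. Of the other genes, Bap1, Btbd10, Eif2ak4 and Ppm1b had log2 folds between -0.15 and 0.078 in the authors' deposited table, none with an unadjusted p under 0.05.

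Some divergent pairs near the bottom of the table had large folds of opposite sign, and the pairs given here were chosen after their values were seen. Hist1h2ah and Hist1h2bk had log2 folds of 2.50 and -2.98, and Hist1h2ai and Hist1h2bl 2.99 and -1.72, in the authors' deposited table. The difference within the pairs was not tested.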
